A study of Mus musculus with 11 samples.

Results

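The chemokines and chemokine receptors of the mouse were followed through sorted epidermal cells as 1 gene family. Its members are the protein-coding genes whose symbols are built from Ccl, Cxcl, Xcl, Cx3cl, Ccr, Cxcr, Xcr or Cx3cr, a number and at most 1 letter. The rule found 62 of the 55536 genes in the count files, 44 of them chemokines and 18 of them receptors, and used no measured value. Of the 62 genes, 48 had at least 10 raw counts summed over the libraries, among them 30 chemokines and all 18 receptors.

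Chemokines are small secreted proteins that bind to cell surfaces and matrix and direct the movement and placement of cells. Their receptors span the membrane and signal through inhibitory G proteins, which leads to adhesion and movement, and a separate set of atypical receptors takes chemokines up without this signalling. In skin, keratinocytes secrete chemokines such as Cxcl14, Cxcl16 and Ccl27a, while resident and recruited leukocytes carry the receptors, with Ccr4, Ccr8 and Ccr10 known from T cells that home to skin.

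RNA was sequenced in bulk from epidermal cells of the dorsal skin of adult male CD4Cre R26-tdT (C57Bl6/N) mice. In these mice, Cre driven by the CD4 promoter switches on the reporter tdT, and descendants of a marked cell keep it, so tdT says that CD4Cre was active in a cell or in a forebear and not that the cell now expresses CD4. All 4 groups carried both alleles and were sorted from a CD49f+CD34+ gate: 3 libraries of Sca-1+ tdT+ cells, 2 of Sca-1+ tdT- cells, 3 of Sca-1neg tdT+ cells and 3 of Sca-1neg tdT- cells. Each library pooled 2 mice, which were 29 weeks old for replicate 1 of every group and 32 weeks old for the others, and no label says whether the pools of different groups came from the same animals.

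Total counts ran from 17409131 to 46542177 per library. An entry read as the tdT tracer stood at 224 to 307 CPM (counts scaled to the size of the library) in the Sca-1+ tdT+ group, 4.10 and 4.89 CPM in Sca-1+ tdT- cells, 133 and 252 CPM in replicates 1 and 3 of Sca-1neg tdT+, and 2.54 to 3.78 CPM in Sca-1neg tdT- libraries. The tracer was at 2.05 CPM, no higher than in the tdT- libraries, for the library labelled Sca-1neg tdT+ replicate 2 (exact 95% binomial interval 1.44 to 2.83 by Clopper-Pearson, counting error only). In that library, in Sca-1neg tdT+ replicate 1 and in Sca-1neg tdT- replicate 2, the sum of 6 liver transcripts lay between 6864 and 14560 CPM, and in the remaining 8 libraries between 4.61 and 56.4 CPM. The keratinocyte identity of the gate was visible in all groups, with 5 basal keratinocyte markers at 12880 to 32730 CPM. Transcripts of the sorted surface protein CD34 were lower in Sca-1+ tdT+ libraries, at 22.4 to 35.7 CPM, than in the other 8, at 320 to 1130 CPM. Ly6a, which encodes Sca-1, was 153 to 294 CPM in the 5 Sca-1+ libraries, 27.7, 59.2 and 9.64 CPM in Sca-1neg tdT+ libraries, the 59.2 CPM being that of the library labelled replicate 2, and 2.46 to 5.74 CPM in Sca-1neg tdT- libraries (tdT+ against tdT- log2 fold change 3.11 ± 0.66, adjusted p = 0.207).

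Markers of leukocytes and vessels were unevenly spread over the libraries. The 7 T cell markers summed to 188, 643 and 380 CPM in Sca-1+ tdT+, 45.7 and 45.4 CPM in Sca-1+ tdT-, 17.0, 32.2 and 38.6 CPM in Sca-1neg tdT+ and 4.40, 6.40 and 4.76 CPM in Sca-1neg tdT- libraries, and none of the 7 was at 0 in any library. The 6 macrophage and monocyte markers summed to 54.3 to 174 CPM in Sca-1+ tdT+, 113 and 715 CPM in Sca-1+ tdT-, 8.49 to 344 CPM in Sca-1neg tdT+ and 7.2 to 82.9 CPM in Sca-1neg tdT- libraries. The 7 endothelial markers had sums of 1616 and 1662 CPM in Sca-1+ tdT- cells, with 6.12 to 422 CPM in the remaining 9 libraries. In bulk samples, fewer cells of a type and less RNA per cell cannot be told apart. The libraries that stand apart were kept, and values without them are given beside the results that they change.

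Cxcl14 was the most abundant chemokine transcript in every library. Per kilobase of exon, Cxcl14 averaged 945 CPM over the 11 libraries. The next members on the same scale were Cxcl16 at 35.7, Ccl27a at 29.2, Cxcl12 at 27.2, Cxcl1 at 19.3, Ccl2 at 18.6, Ccl7 at 15.1, Xcl1 at 11.3, Cx3cl1 at 8.94 and Cxcl10 at 8.35 CPM per kilobase, and no receptor was among these 10. Cxcl14 made up 50.2%, 46.9% and 33.4% of the summed chemokine CPM in Sca-1+ tdT+ cells, 50.8% and 54.1% in Sca-1+ tdT-, 74.3%, 79.0% and 80% in Sca-1neg tdT+ and 84.0%, 87.2% and 85.8% in Sca-1neg tdT- libraries. Its share was thus lower in all 5 Sca-1+ libraries than in all 6 Sca-1neg libraries. The 18 receptor genes together reached 86.9 to 128 CPM in Sca-1+ tdT+, 45.5 and 115 CPM in Sca-1+ tdT-, 41.9 to 76.6 CPM in Sca-1neg tdT+ and 14.9 to 26 CPM in Sca-1neg tdT- libraries, the last group being the lowest without overlap.

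**Figure D1:**
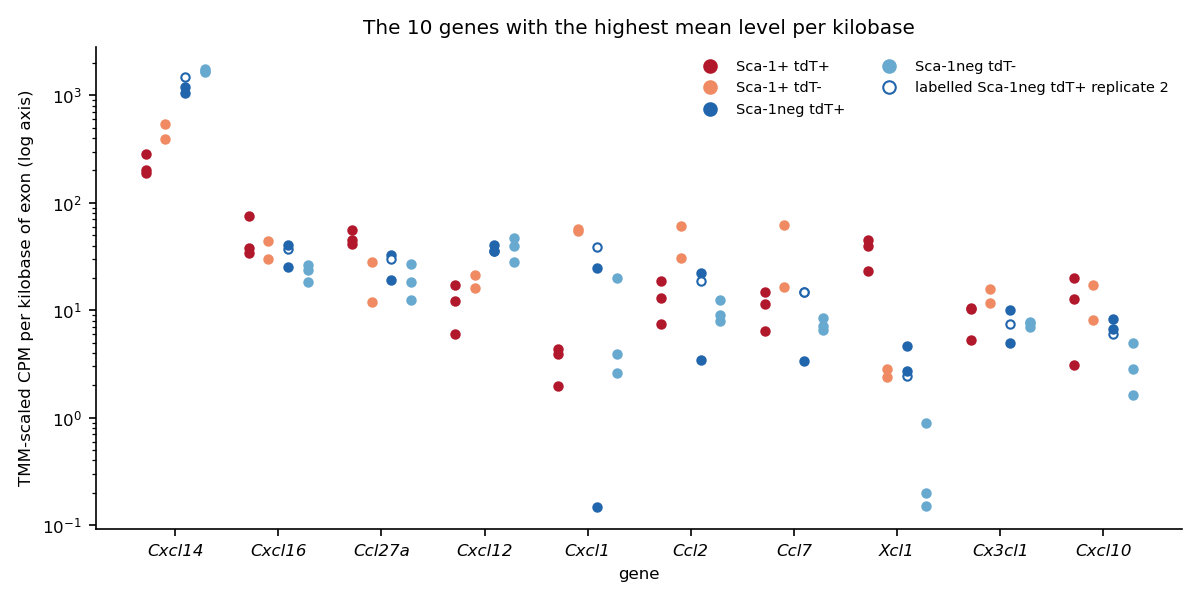
TMM-scaled CPM per kilobase of exon (log axis) of the 10 genes with the highest mean on that scale; each point is a library, coloured by sorted group, with the library labelled Sca-1neg tdT+ replicate 2 open. Cxcl14, with a mean of 945, lies above every other gene in every library, and Xcl1 is highest in the Sca-1+ tdT+ libraries.

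**Figure D2:**
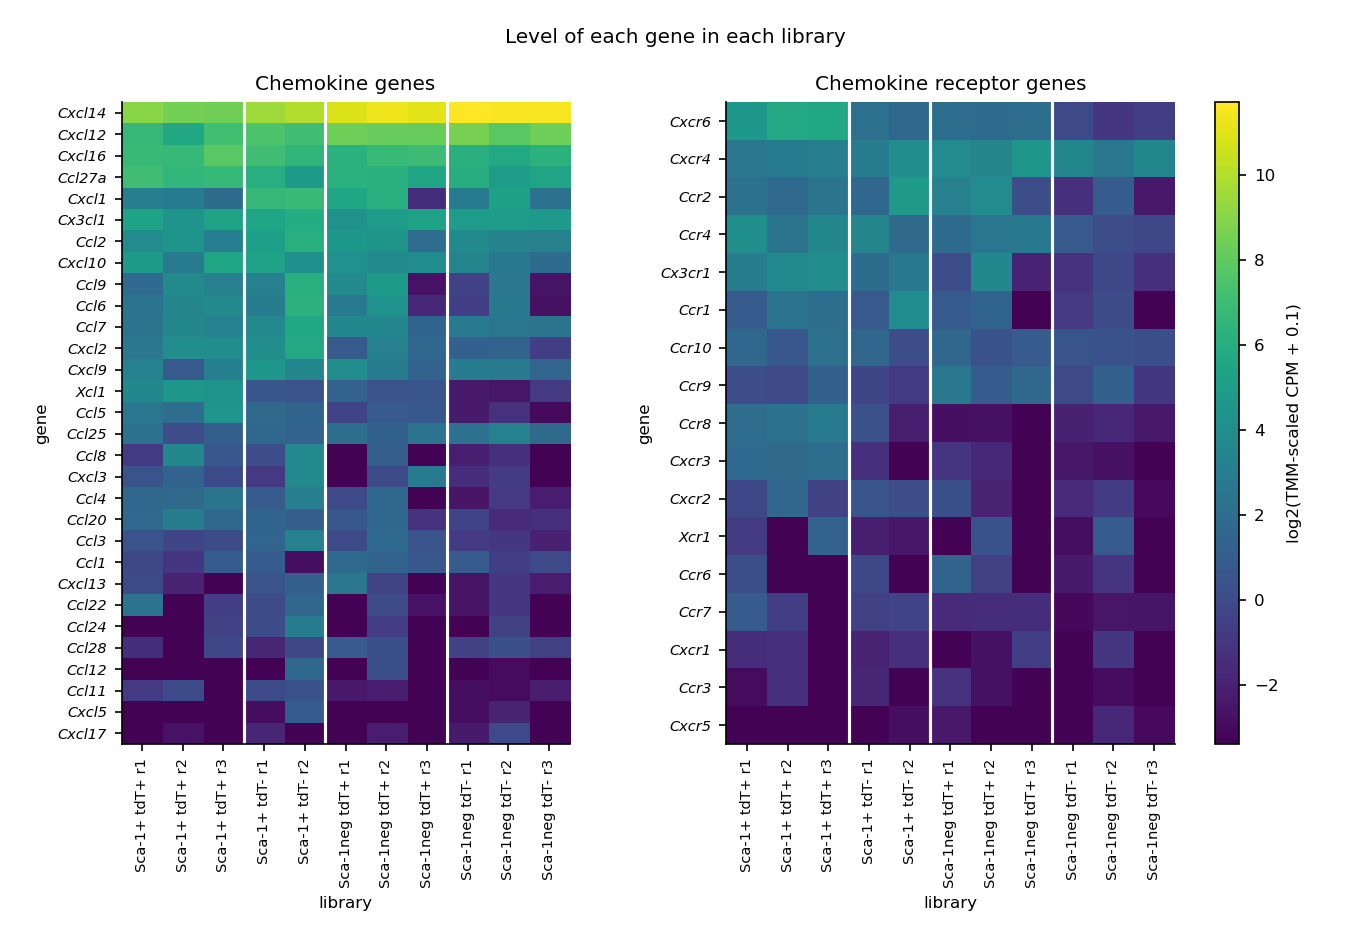
Level of 47 of the 48 genes with at least 10 raw counts, as log2(TMM-scaled CPM + 0.1), with 1 column per library (r for replicate) and white lines between the groups; 30 chemokines are on the left and 17 receptors on the right, each by falling mean. The Cxcr6, Xcl1, Ccr8 and Cxcr3 rows are brightest in Sca-1+ tdT+ libraries, and the Ccl6, Ccl9, Ccr1 and Ccr2 rows in Sca-1+ tdT- replicate 2.

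Among the chemokines, Cxcl14 (chromosome 13, 56288643 to 56296551, mm10), which attracts myeloid cells and is made by keratinocytes, was 514, 370 and 344 CPM in Sca-1+ tdT+ cells, 713 and 990 CPM in Sca-1+ tdT-, 1914, 2690 and 2173 CPM in Sca-1neg tdT+ and 3218, 3014 and 3053 CPM in Sca-1neg tdT- libraries. The 4 groups did not overlap, and the order was Sca-1+ tdT+, Sca-1+ tdT-, Sca-1neg tdT+ and Sca-1neg tdT- from low to high. Its promoter is shown because Cxcl14 was the member with a called difference in 3 comparisons and in the opposite direction to the other called members except Cxcl12. The 250 bases before the RefSeq start of each gene shown here (GRCm38.p6) are printed 5′ to 3′ on the strand of the gene. The gene spans given in the text come from GENCODE, so a window can run into the stated span, as that of Cxcl2 does. For Cxcl14 they are chr13:56296552-56296801 on the minus strand, with capitals for the match to the STAT motif TTCNNNGAA.
Cxcl14: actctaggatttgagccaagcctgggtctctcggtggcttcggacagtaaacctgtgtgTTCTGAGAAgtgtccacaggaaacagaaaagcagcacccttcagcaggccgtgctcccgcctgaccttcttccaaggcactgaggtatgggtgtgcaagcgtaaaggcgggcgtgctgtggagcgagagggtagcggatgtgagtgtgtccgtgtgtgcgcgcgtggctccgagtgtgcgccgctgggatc
Of 6 motifs searched on both strands, this was the motif found in the Cxcl14 window, and 7.02% of the 32817 promoter windows in the table hold it. A match describes letters and shows no binding.

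Cxcl12 (chromosome 6, 117168535 to 117181367), the ligand of Cxcr4 and Ackr3 and a retention signal for many cells, was 99.4, 48.8 and 140 CPM in Sca-1+ tdT+ cells, 174 and 132 CPM in Sca-1+ tdT-, 329, 292 and 291 CPM in Sca-1neg tdT+ and 387, 232 and 325 CPM in Sca-1neg tdT- libraries. All 5 Sca-1+ libraries were below all 6 Sca-1neg libraries, while the tdT+ and tdT- libraries overlapped within each Sca-1 fraction. Cxcl16 (chromosome 11, 70453983 to 70459984), the membrane-bound ligand of Cxcr6, was 116, 104 and 226 CPM in Sca-1+ tdT+ cells, 134 and 90.2 CPM in Sca-1+ tdT-, 76.1, 113 and 121 CPM in Sca-1neg tdT+ and 72.1, 55.6 and 79.1 CPM in Sca-1neg tdT- libraries. It passed no test, and 18.3% of its exon sequence overlaps Zmynd15 on the other strand, whose reads cannot be told apart without a strand setting. Ccl27a (chromosome 4, 41769467 to 41774247), a keratinocyte ligand of Ccr10, was 134, 97.8 and 107 CPM in Sca-1+ tdT+ cells, 66.6 and 28.1 CPM in Sca-1+ tdT-, 77.2, 71.4 and 45.3 CPM in Sca-1neg tdT+ and 64.0, 29.6 and 43.1 CPM in Sca-1neg tdT- libraries. The 3 Sca-1+ tdT+ libraries were above the other 8, although Ccl27a passed the threshold in no comparison with edgeR's test as designed. Ccl27b and the Ccl27 copies on unplaced scaffolds had 0 counts. How reads shared between such copies and Ccl27a were handled is not known, which leaves its level uncertain.

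Xcl1 (chromosome 1, 164931644 to 164935527), a chemokine of activated T and natural killer cells that attracts Xcr1+ dendritic cells, was 12.2, 23.7 and 20.5 CPM in Sca-1+ tdT+ cells, 1.49 and 1.26 CPM in Sca-1+ tdT-, 2.45, 1.29 and 1.43 CPM in Sca-1neg tdT+ and 0.103, 0.0793 and 0.464 CPM in Sca-1neg tdT- libraries. The Sca-1+ tdT+ libraries were above all others and the Sca-1neg tdT- libraries below all others, with the other groups overlapping between them. Exons of Xcl1 overlap the predicted gene Gm20743 on the other strand over 18.7% of their length.

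Among the receptors, Cxcr6 (chromosome 9, 123806475 to 123811760), a receptor of tissue-resident and activated T cells, was 24.8, 52.4 and 51.1 CPM in Sca-1+ tdT+ cells, 4.40 and 3.06 CPM in Sca-1+ tdT-, 4.03, 3.70 and 4.13 CPM in Sca-1neg tdT+ and 0.847, 0.397 and 0.561 CPM in Sca-1neg tdT- libraries. Its order was that of Xcl1: highest in Sca-1+ tdT+, lowest in Sca-1neg tdT-, and overlapping in the groups between. The promoters of Cxcr6 and Xcl1 are shown because Cxcr6 was called higher in 4 comparisons and Xcl1 in 3. The Cxcr6 window is chr9:123806227-123806476 on the plus strand and the Xcl1 window chr1:164935523-164935772 on the minus strand, with capitals for matches to the RUNX motif TGTGGT (read on the other strand as ACCACA) and, in Xcl1, to the T-box motif GGTGTGA.
Cxcr6: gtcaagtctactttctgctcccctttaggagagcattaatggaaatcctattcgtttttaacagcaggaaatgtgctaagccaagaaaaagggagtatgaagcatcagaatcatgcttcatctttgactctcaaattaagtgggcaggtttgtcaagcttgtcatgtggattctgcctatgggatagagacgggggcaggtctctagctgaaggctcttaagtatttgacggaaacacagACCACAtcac
Xcl1: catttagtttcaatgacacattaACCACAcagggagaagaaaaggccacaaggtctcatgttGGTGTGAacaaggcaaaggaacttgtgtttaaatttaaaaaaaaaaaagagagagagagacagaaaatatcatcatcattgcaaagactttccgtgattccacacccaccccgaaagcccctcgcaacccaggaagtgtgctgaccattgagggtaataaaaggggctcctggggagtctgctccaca
The RUNX letters occur in 14% of the 32817 windows and in 18.8% of the 48 windows of members, and the T-box letters in 3.33% of all windows and 4.17% of member windows.

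Ccr8 (chromosome 9, 120092114 to 120094906), found on skin-resident and regulatory T cells, was 3.94, 4.66 and 6.81 CPM in Sca-1+ tdT+ cells, 1.17 and 0.126 CPM in Sca-1+ tdT-, 0.0453, 0.0536 and 0 CPM in Sca-1neg tdT+ and 0.145, 0.211 and 0.0976 CPM in Sca-1neg tdT- libraries. It was above 3 CPM in the Sca-1+ tdT+ libraries alone and rested on 2 reads in all 3 Sca-1neg tdT+ libraries together. Ccr4 (chromosome 9, 114490316 to 114504916), the receptor for Ccl17 and Ccl22, was 17.5, 5.22 and 11.9 CPM in Sca-1+ tdT+ cells, 11.1 and 3.48 CPM in Sca-1+ tdT-, 3.58, 5.78 and 6.34 CPM in Sca-1neg tdT+ and 1.63, 1.03 and 0.805 CPM in Sca-1neg tdT- libraries. The Sca-1neg tdT- libraries were below all others, and the other 3 groups overlapped. Cxcr3 (chromosome X, 101731535 to 101734269), the receptor for Cxcl9 and Cxcl10 on activated T cells, was 3.52, 3.41 and 4.13 CPM in Sca-1+ tdT+ cells and at most 0.363 CPM in the other 8.

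Ccl5 (chromosome 11, 83525778 to 83530518), a ligand of Ccr1 and other receptors that effector T cells secrete, was 5.78, 3.92 and 22.2 CPM in Sca-1+ tdT+ cells, 3.42 and 2.68 CPM in Sca-1+ tdT-, 0.725, 1.82 and 1.54 CPM in Sca-1neg tdT+ and 0.103, 0.317 and 0.0244 CPM in Sca-1neg tdT- libraries. The 4 groups did not overlap, and replicate 3 was the highest of the Sca-1+ tdT+ group. Ccl3 (chromosome 11, 83647844 to 83649355), a macrophage and T cell ligand of Ccr1, was 1.36, 0.738 and 0.929 CPM in Sca-1+ tdT+ cells, 2.75 and 8.80 CPM in Sca-1+ tdT-, 0.861, 3.59 and 1.32 CPM in Sca-1neg tdT+ and 0.455, 0.397 and 0.146 CPM in Sca-1neg tdT- libraries. The Sca-1neg tdT- libraries were again below all others.

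Cxcl2 (chromosome 5, 90903871 to 90905938) and Cxcl1 (chromosome 5, 90891241 to 90893115) are neighbouring genes for ligands of the neutrophil receptor Cxcr2. Cxcl2 was 5.84, 16 and 15.8 CPM in Sca-1+ tdT+ cells, 16.7 and 51.4 CPM in Sca-1+ tdT-, 1.77, 9.05 and 3.03 CPM in Sca-1neg tdT+ and 2.29, 2.54 and 0.561 CPM in Sca-1neg tdT- libraries. Cxcl1 was 8.15, 7.27 and 3.72 CPM in Sca-1+ tdT+ cells, 103 and 108 CPM in Sca-1+ tdT-, 45.9, 72.3 and 0.276 CPM in Sca-1neg tdT+ and 7.38, 37.0 and 4.85 CPM in Sca-1neg tdT- libraries. Both were highest in the 2 Sca-1+ tdT- libraries, and Cxcl1 was next highest in the 3 libraries with liver transcripts. Their promoters are shown because they share matches to the NF-kB motif (matches in capitals) in chr5:90890995-90891244 (Cxcl1) and chr5:90903649-90903898 (Cxcl2), both on the plus strand.
Cxcl1: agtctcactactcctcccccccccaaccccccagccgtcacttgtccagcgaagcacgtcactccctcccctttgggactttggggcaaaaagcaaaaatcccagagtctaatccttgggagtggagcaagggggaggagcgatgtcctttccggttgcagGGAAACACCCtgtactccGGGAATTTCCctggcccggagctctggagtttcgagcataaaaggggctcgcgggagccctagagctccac
Cxcl2: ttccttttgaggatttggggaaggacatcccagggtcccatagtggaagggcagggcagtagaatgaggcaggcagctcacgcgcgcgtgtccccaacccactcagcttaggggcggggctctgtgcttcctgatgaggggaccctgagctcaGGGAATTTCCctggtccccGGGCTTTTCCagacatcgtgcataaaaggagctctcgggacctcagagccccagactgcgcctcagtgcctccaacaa
Each window holds 2 matches, of which the upstream one in Cxcl1 lies on the other strand. The motif occurs in 1.41% of the 32817 windows and in 12.5% of the 48 member windows, those of Ccl20, Ccl9, Ccr3, Cxcl1, Cxcl2 and Cxcl3. The remaining motifs searched were the TATA box TATAAA, in 12.4% of all windows and 25% of member windows, and the AP-1 motif TGANTCA, in 6.75% and 12.5%.

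**Figure D3:**
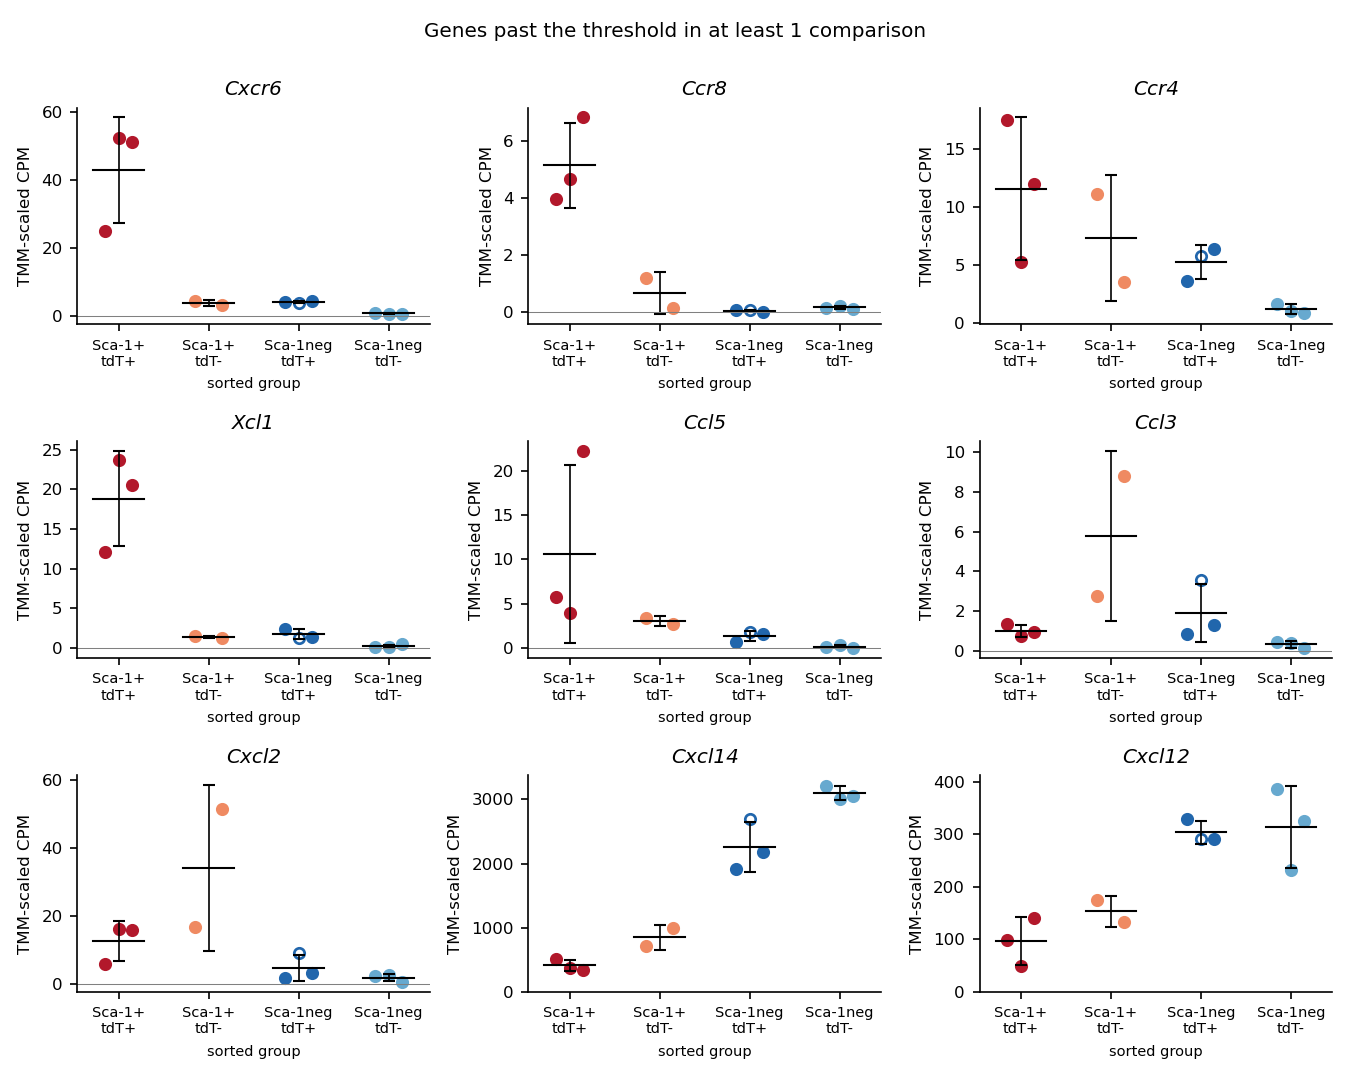
TMM-scaled CPM of the 9 genes past the threshold in at least 1 comparison; each point is a library, the horizontal line is the group mean and the bar its SD (n = 3, 2, 3 and 3 from left to right), and the library labelled Sca-1neg tdT+ replicate 2 is open. Cxcr6, Xcl1 and Ccr8 stand apart in Sca-1+ tdT+ cells, and Cxcl14 climbs from the left group to the right group without overlap.

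The tests compared tdT+ with tdT- cells in each Sca-1 fraction and Sca-1+ with Sca-1neg cells in each tdT fraction, with p-values from edgeR's quasi-likelihood test adjusted by Benjamini-Hochberg over 20307 genes and a threshold of 0.05. Of the 62 genes, 43 passed the filter on low counts and were tested, 28 chemokines and 15 receptors. A gene can pass this filter through the group in which it is high, so counts and medians over the 43 describe them and support nothing. The 14 genes under 10 counts were Ccl17, Ccl26, Ccl27b, Cxcl15 and the near-identical copies of Ccl19, Ccl21 and Ccl27 on chromosome 4 and on unplaced scaffolds, whose reads cannot be assigned with certainty. Ccr3, Cxcl17, Cxcl5, Cxcr1 and Cxcr5 had 12 to 54 counts and were not tested. Comparisons that share a group of libraries are not independent.

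In the Sca-1+ fraction, traced cells had more Cxcr6 and Xcl1 and less Cxcl14 than untraced cells. Cxcr6 averaged 42.8 ± 15.6 CPM in the tdT+ and 3.73 ± 0.948 CPM in the tdT- libraries (SD; n = 3 and 2), a log2 fold change of 3.52 ± 0.44 (SE; adjusted p = 0.00195). Xcl1 averaged 18.8 ± 5.98 CPM in the tdT+ and 1.37 ± 0.163 CPM in the tdT- libraries, a log2 fold change of 3.77 ± 0.76 (adjusted p = 0.0244). Cxcl14 averaged 409 ± 91.9 CPM in the tdT+ and 851 ± 196 CPM in the tdT- libraries, a log2 fold change of -1.06 ± 0.23 (adjusted p = 0.0340). These 3 genes are 6.98% of the 43 tested, beside 2.74% of all 20307 genes, of which 0.394% were higher and 2.34% lower. The median log2 fold change was -0.49 over the 43 genes and 0.04 over all genes.

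Several other members had large fold changes that missed the threshold in the Sca-1+ fraction. Cxcr3 had a log2 fold change of 4.61 ± 1.66 (adjusted p = 0.213), from 272 reads in the tdT+ libraries and 9 in the tdT- libraries, a ratio of 22.5 per scaled read (95% counting interval 11.68 to 49.7). Ccr8 had a log2 fold change of 2.97 ± 1.01 (adjusted p = 0.186), from 362 reads and 40 reads, a ratio of 6.74 (4.85 to 9.59). Both intervals cover counting error only and leave out the spread between libraries. The tdT- libraries held 9 and 0 reads of Cxcr3 and 37 and 3 reads of Ccr8. For Ccl27a the value was 1.25 ± 0.42 (adjusted p = 0.186), for Ccl2, the monocyte attractant that binds Ccr2, -1.80 ± 0.67 (adjusted p = 0.246), and for Cxcl1 -4.04 ± 1.61 (adjusted p = 0.306). Cxcl1 averaged 6.38 ± 2.35 CPM in the tdT+ and 105 ± 3.78 CPM in the tdT- libraries without overlap, and Cxcl1 (adjusted p = 2.30e-04) and Ccl2 (0.0437) passed the threshold when only the Sca-1+ libraries were fitted. DESeq2's Wald test called Cxcr3 (adjusted p = 0.00430), Ccr8 (0.0114), Ccl27a (0.0403) and Ccl2 (0.0457), and not Cxcl1 (0.0634).

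The T cell markers moved with the higher genes, with 4 of 7 higher in tdT+ libraries and a median log2 fold change of 3.08, and the bulge markers with the lower gene, with 3 of 5 lower. The 7 endothelial markers had a median log2 fold change of -5.18, with 1 of 7 (Egfl7) lower, beside the negative values of Cxcl1 and Ccl2. Cxcl1 amounted to 26.2%, 12.8% and 6.21% of the summed endothelial markers in tdT+ libraries and to 6.36% and 6.50% in tdT- libraries, which overlapped. The part of these cell types in the result was not tested. Cxcr6 amounted to 13.2%, 8.15% and 13.5% of the summed T cell markers in tdT+ libraries and to 9.63% and 6.74% in tdT- libraries, which overlapped, and Xcl1 to 6.45%, 3.69% and 5.41% in tdT+ and 3.26% and 2.77% in tdT- libraries, which did not. Cxcl14 amounted to 1.67%, 1.13% and 1.33% of the summed basal keratinocyte markers in tdT+ libraries and to 3.85% and 4.54% in tdT- libraries. Against the summed bulge markers it amounted to 11.62%, 11.51% and 6.54% in tdT+ and 17.4% and 20.43% in tdT- libraries. Most of that sum is Krt15, with a log2 fold change of 0.20. The log2 fold changes of Cd34 (-3.68), Tcf7l1 (-3.54), Lhx2 (-2.69) and Nfatc1 (-1.19) were below that of Cxcl14. So Cxcl14 was lower against Krt15 and not against each bulge marker. Cxcr6 kept its call when any library was left out. Xcl1 lost it without Sca-1+ tdT+ replicate 2 (adjusted p = 0.0689), Sca-1+ tdT+ replicate 3 (0.0713), Sca-1+ tdT- replicate 1 (0.15) or Sca-1+ tdT- replicate 2 (0.294), and Cxcl14 without the same libraries (0.0833, 0.123, 0.0562 and 0.481) or Sca-1neg tdT- replicates 1 or 3 (0.0615 and 0.0580).

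**Figure D4:**
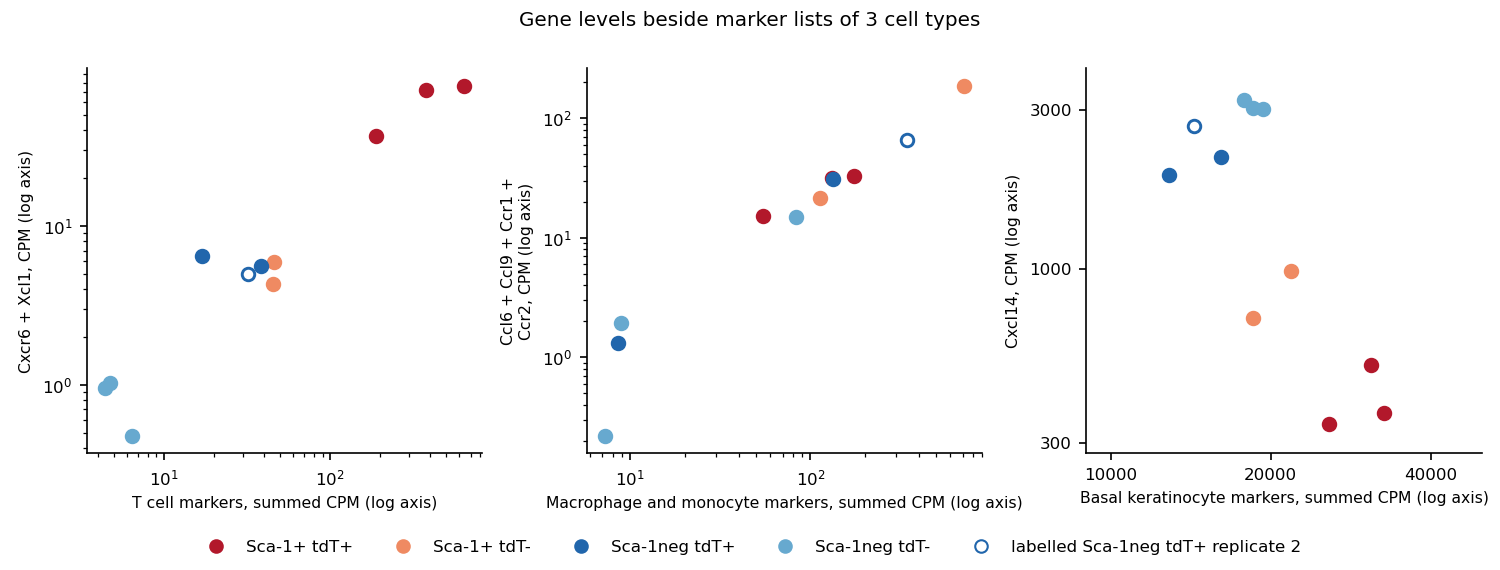
Summed CPM of Cxcr6 and Xcl1 against 7 T cell markers (left), of Ccl6, Ccl9, Ccr1 and Ccr2 against 6 macrophage and monocyte markers (middle), and CPM of Cxcl14 against 5 basal keratinocyte markers (right); all axes are logarithmic and each point is a library. The library with the most macrophage marker transcripts is Sca-1+ tdT- replicate 2, at 715 CPM. The 4 genes set against them were named after their values were seen, and each was highest in that library. Their highest sum there was thus fixed by the choice and supports nothing.

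In the Sca-1neg fraction, Cxcr6 was the member that passed. It averaged 3.95 ± 0.229 CPM in the tdT+ and 0.602 ± 0.228 CPM in the tdT- libraries (SD, n = 3 and 3), a log2 fold change of 2.70 ± 0.37 (adjusted p = 0.0346). This is 2.33% of the 43 tested, beside 0.064% of all genes, of which 0.0542% were higher and 0.00985% lower. The call includes the library labelled Sca-1neg tdT+ replicate 2, with Cxcr6 at 3.70 CPM beside 4.03 and 4.13 CPM in the others and with the tracer at the tdT- level. Without that library the log2 fold change was 2.75 and the adjusted p 0.0595, and without the 3 libraries with liver transcripts 2.54 and 0.0880. The call was lost as well without Sca-1+ tdT+ replicate 2 or 3 (0.0815 and 0.104), Sca-1neg tdT+ replicate 1 or 3 (0.0742 and 0.0586) or Sca-1neg tdT- replicate 2 or 3 (0.0704 and 0.172), at log2 fold changes of 2.48 to 2.73.

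Other members known from T cells had values of either sign in the Sca-1neg fraction that missed the threshold. Ccr8 had a fitted log2 fold change of -2.03 ± 1.04 (adjusted p = 0.644), which depends on the prior count, at no more than 0.0536 CPM in tdT+ and 0.0976 to 0.211 CPM in tdT- libraries. The log2 fold change was 2.98 ± 0.64 for Xcl1 (adjusted p = 0.156), 2.17 ± 0.57 for Ccr4 (0.28) and 3.18 ± 0.89 for Ccl5 (0.320), and -0.45 ± 0.21 for Cxcl14 (0.600). The share of all genes without overlap was not counted. The lack of overlap between tdT+ and tdT- libraries for these 5 genes thus describes them and supports nothing. The tdT+ side includes the library labelled Sca-1neg tdT+ replicate 2, with the tracer at the tdT- level. Of the 43 genes, 37 had a positive and 6 a negative log2 fold change, with a median of 1.36 beside -0.03 over all genes. Cd3e, 1 of the 7 T cell markers, passed too (log2 fold change 3.28 ± 0.46, adjusted p = 0.0404), and its part in the result was not tested. Cxcr6 amounted to 23.8%, 11.5% and 10.7% of the summed T cell markers in tdT+ libraries and to 19.3%, 6.2% and 11.8% in tdT- libraries, which overlapped.

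Among tdT+ cells, the Sca-1+ fraction had more of the receptors Cxcr6 and Ccr8 and of the chemokines Xcl1 and Ccl5, and less Cxcl14 and Cxcl12, than the Sca-1neg fraction. Cxcl14 averaged 409 ± 91.9 CPM in Sca-1+ and 2259 ± 395 CPM in Sca-1neg libraries (SD, n = 3 and 3), a log2 fold change of -2.47 ± 0.22 (adjusted p = 1.21e-04). Cxcl12 averaged 96.1 ± 45.8 CPM in Sca-1+ and 304 ± 21.5 CPM in Sca-1neg libraries, a log2 fold change of -1.66 ± 0.33 (adjusted p = 0.00931). Cxcr6 was higher by 3.43 ± 0.37 on the log2 scale (adjusted p = 3.29e-04), Xcl1 by 3.44 ± 0.63 (0.00546) and Ccl5 by 2.96 ± 0.85 (0.0448). Ccr8 had a fitted log2 fold change of 7.08 ± 1.11 (adjusted p = 0.00246), which depends on the prior count. Its 362 reads in Sca-1+ against 2 reads in Sca-1neg libraries give a ratio of 143, with a 95% counting interval of 39.3 to 1185. That interval leaves out the spread between libraries.

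The 6 called genes are 14% of the 43 tested, beside 12.7% of all 20307 genes, a share near the background. Of all genes, 5.94% were higher and 6.73% lower. The median log2 fold change was 0.25 over the 43 genes and -0.07 over all genes. Cxcr4 (chromosome 1, 128588199 to 128592293), the receptor for Cxcl12, was 5.84, 7.38 and 8.10 CPM in Sca-1+ and 14.8, 11.1 and 23.8 CPM in Sca-1neg tdT+ libraries, without overlap, at a log2 fold change of -1.22 ± 0.40 (adjusted p = 0.0684). Cxcr3 had 4.21 ± 1.38 (0.0695) and Ccr4 1.14 ± 0.55 (0.187). All 7 T cell markers were higher in Sca-1+ libraries, with a median log2 fold change of 3.87, 3 of 5 basal keratinocyte markers were higher and all 5 bulge markers were lower, and their part in the result was not tested. Cxcl12 amounted to 2.25%, 1.52% and 2.67% of the summed bulge markers in Sca-1+ and to 4.39%, 3.75% and 2.54% in Sca-1neg tdT+ libraries, which overlapped. Cxcl14 amounted to 1.13% to 1.67% of the basal keratinocyte markers in Sca-1+ and 13.5% to 18.8% in Sca-1neg tdT+ libraries. Against the summed bulge markers, which were lower like Cxcl14, it amounted to 11.62%, 11.51% and 6.54% in Sca-1+ and 25.55%, 34.57% and 18.96% in Sca-1neg tdT+ libraries. Most of that sum is Krt15, with a log2 fold change of -0.82, and Nfatc1 had -1.76. Cd34 (-4.635), Lhx2 (-3.97) and Tcf7l1 (-3.50) fell more than Cxcl14. So Cxcl14 was lower against Krt15 and not against each bulge marker.

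Ccl5 was the weakest of these calls. It was lost when any of 8 libraries was left out, at log2 fold changes of 1.83 to 3.26: Sca-1+ tdT+ replicates 1 and 3 (adjusted p = 0.0592 and 0.205), Sca-1+ tdT- replicates 1 and 2 (0.0677 and 0.0658), Sca-1neg tdT+ replicates 1 and 3 (0.138 and 0.0821), the library labelled Sca-1neg tdT+ replicate 2 (0.0848), Sca-1neg tdT- replicate 1 (0.0606). The other 5 genes kept their calls without any 1 library. With the 3 liver-positive libraries left out, and so 1 Sca-1neg tdT+ library remaining, these 5 kept theirs too, and Ccl5 had an adjusted p of 0.138.

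Among tdT- cells, the Sca-1+ fraction had more Cxcr6, Ccr4, Xcl1, Ccl5, Ccl3 and Cxcl2 and less Cxcl14 than the Sca-1neg fraction. Cxcl14 averaged 851 ± 196 CPM in Sca-1+ and 3095 ± 108 CPM in Sca-1neg libraries (SD, n = 2 and 3), a log2 fold change of -1.86 ± 0.25 (adjusted p = 0.00383). Cxcr6 averaged 3.73 ± 0.948 CPM in Sca-1+ and 0.602 ± 0.228 CPM in Sca-1neg libraries, a log2 fold change of 2.62 ± 0.39 (adjusted p = 0.00569). Ccr4 was higher by 2.66 ± 0.61 on the log2 scale (adjusted p = 0.0298) and Xcl1 by 2.65 ± 0.67 (0.0423). Ccl3 was higher by 4.10 ± 0.85 (0.0198), Cxcl2 by 4.24 ± 0.88 (0.0248) and Ccl5 by 4.34 ± 0.96 (0.0264). Ccl3 averaged 5.78 ± 4.27 CPM in Sca-1+ and 0.333 ± 0.164 CPM in Sca-1neg libraries, and Cxcl2 averaged 34 ± 24.5 CPM in Sca-1+ and 1.80 ± 1.08 CPM in Sca-1neg libraries.

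The 7 called genes are 16.3% of the 43 tested, beside 5.74% of all 20307 genes, of which 3.68% were higher and 2.06% lower. Of the 43, 36 had a positive and 7 a negative log2 fold change, with a median of 2.62 beside -0.13 over all genes. Cxcl12 had a log2 fold change of -1.04 ± 0.37 (adjusted p = 0.141), Ccr8 2.08 ± 0.91 (0.225) and Ccl7, a monocyte attractant next to Ccl2, 2.41 ± 0.66 (0.0609). Ccl7 was 13.1 and 49.3 CPM in Sca-1+ and 6.74, 5.68 and 5.22 CPM in Sca-1neg libraries, without overlap. The T cell markers moved with these genes, 6 of 7 being higher, and so did 3 of 6 Langerhans cell markers, while 3 of 5 bulge markers were lower. Cxcr6 amounted to 9.63% and 6.74% of the summed T cell markers in Sca-1+ and to 19.3%, 6.2% and 11.8% in Sca-1neg libraries. Ccr4 had 24.4% and 7.66%, against 37.1%, 16.1% and 16.9%. Xcl1 had 3.26% and 2.77%, against 2.35%, 1.24% and 9.74%. These ratios overlapped, while those of Ccl5 did not (7.48% and 5.91%, against 2.35%, 4.96% and 0.513%). Cxcl14 had 17.4% and 20.43% of the summed bulge markers, mostly Krt15, against 28.43%, 26.05% and 21.93%. Of the 7 endothelial markers none passed at a median log2 fold change of 5.08, and of the 6 macrophage markers none passed at a median of 3.40. The part of these cell types in the result was not tested.

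This comparison rests on 2 Sca-1+ tdT- libraries that differ from each other. Without Sca-1+ tdT- replicate 1 none of the 7 genes passed, with adjusted p of 0.0592 for Cxcl14 and Cxcr6, 0.0637 for Ccl3, 0.0677 for Cxcl2, 0.141 for Ccl5, 0.247 for Xcl1 and 0.420 for Ccr4, whose log2 fold change was then 1.57. Without Sca-1+ tdT- replicate 2, Cxcl14 (adjusted p = 0.0173), Cxcr6 (0.0121) and Ccr4 (0.0255) passed, while Ccl3 (0.193), Cxcl2 (0.115), Ccl5 (0.0630) and Xcl1 (0.111) did not. All 7 kept their calls without the 3 libraries with liver transcripts. Leaving out Sca-1neg tdT- replicate 1 gave 2 calls, replicate 2 gave 5 and replicate 3 gave 3, while leaving out Sca-1neg tdT+ replicate 3 gave 12.

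**Figure D5:**
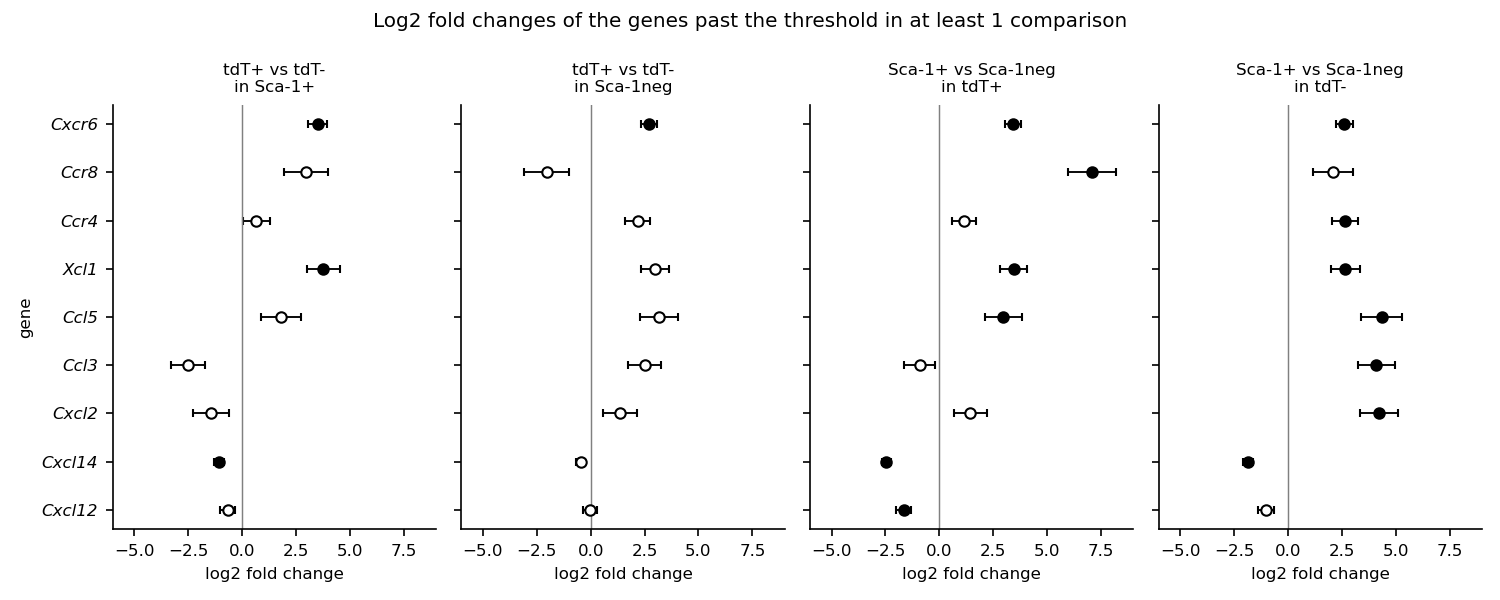
Log2 fold change with its SE (approximate, from the F statistic) of the 9 genes past the threshold in at least 1 comparison, in each of the 4 comparisons; filled points passed an adjusted p of 0.05 in edgeR's quasi-likelihood test and open points did not. Cxcr6 is filled in all 4 panels, Xcl1 in 3 and Cxcl14 in 3, with Cxcl14 left of 0.

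The difference of the tdT effect between the fractions, Sca-1+ minus Sca-1neg, passed for 0 of the 43 genes in edgeR's test, beside 0.483% of all genes (0.0148% higher and 0.468% lower), with 2476 of all genes at an unadjusted p under 0.05. For Cxcr6 the difference was 0.82 ± 0.53 on the log2 scale (adjusted p = 0.583), for Xcl1 0.79 ± 0.92 (0.793) and for Cxcl14 -0.60 ± 0.31 (0.470). Ccr8 had a difference of 5.0 ± 1.44 (0.186) and Ccl3 one of -5.02 ± 1.11 (0.0861). DESeq2 called 3 genes here, Ccl3, Ccr8 and Ccr2. So a tdT effect that passed in 1 fraction, such as that of Xcl1 or Cxcl14, was not shown to differ from the effect in the other.

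Of the 48 members with at least 10 counts, 18 were highest of the 11 libraries in Sca-1+ tdT- replicate 2. Among them were Ccl6, Ccl9, Ccr1 and Ccr2, which are genes of myeloid cells, and also Cx3cl1, Cxcl1 and Ccl11. The share of all genes that were highest in this library was not counted, so the 18 describe the members and support nothing. Ccl6 was 7.82 CPM in replicate 1 and 78.4 CPM in replicate 2 of Sca-1+ tdT-, and Ccl9, like Ccl6 a macrophage chemokine of the mouse, 9.24 and 67.3 CPM. Ccr2, a receptor on monocytes, was 3.01 and 26.5 CPM, and Ccr1 was 1.68 and 15.1 CPM. The macrophage and monocyte markers differed in the same way, at 113 and 715 CPM, while the endothelial markers did not, at 1616 and 1662 CPM. These are 2 libraries of 1 group, of 29 and 32 weeks, and what set them apart was not tested.

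Ligands and their receptors were set side by side for the members named. Cxcr6 and its ligand Cxcl16 were both present in Sca-1+ tdT+ cells, where Cxcl16 averaged 148 ± 67.3 CPM, against 112 ± 31.2 CPM in Sca-1+ tdT-, 103 ± 24.1 CPM in Sca-1neg tdT+ and 68.9 ± 12.1 CPM in Sca-1neg tdT- libraries. Xcr1, the receptor for Xcl1 on a subset of dendritic cells, was at most 2.48 CPM in any library. For Ccr4, the ligand Ccl17 had 1 read in all 11 libraries and the ligand Ccl22 was 4.96 CPM in Sca-1+ tdT+ replicate 1 and at most 2.93 CPM elsewhere. For Ccr8, the ligand Ccl1 was 0.0419 to 3.31 CPM and the mouse ligand Ccl8 0 to 13.7 CPM over the libraries. Ccr10, the receptor for Ccl27a, was 1.01 to 4.44 CPM in every library. Cx3cl1, the membrane-bound chemokine of epithelium and vessels, averaged 34.1 ± 11.4 CPM in Sca-1+ tdT+, 53.9 ± 11 CPM in Sca-1+ tdT-, 29.4 ± 9.95 CPM in Sca-1neg tdT+ and 29.4 ± 1.66 CPM in Sca-1neg tdT- libraries. Its receptor Cx3cr1 was 7.67, 14 and 16.1 CPM in Sca-1+ tdT+ cells and 0.165 to 12.5 CPM in the other 8 libraries. Cxcl10, an interferon-induced ligand of Cxcr3, was 6.93 to 45.3 CPM in Sca-1+ tdT+, 18.2 and 39.0 CPM in Sca-1+ tdT-, 13.7 to 18.5 CPM in Sca-1neg tdT+ and 3.66 to 11.2 CPM in Sca-1neg tdT- libraries, and 5.91% of its exons overlap Art3 on the other strand.

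The atypical receptors, which bind chemokines without the usual signal, were read from a list of 8 genes with Pf4, Ppbp, Ccrl2 and the chemokine-cleaving protease Dpp4. None of the 8 passed in either comparison of tdT+ with tdT- cells. Among tdT+ cells, Ackr2, which takes up inflammatory CC chemokines, was higher in Sca-1+ than in Sca-1neg libraries by 2.58 ± 0.54 on the log2 scale (adjusted p = 0.0108), and Ackr3, which takes up Cxcl12, by 2.28 ± 0.49 (0.0162). Ackr3 was 99.4, 59.5 and 48.4 CPM in Sca-1+ tdT+, 99.2 and 73.5 CPM in Sca-1+ tdT-, 10.5, 25.9 and 6.28 CPM in Sca-1neg tdT+ and 12.3, 16.1 and 18.2 CPM in Sca-1neg tdT- libraries, so that its Sca-1+ libraries were above and those of Cxcl12 below the Sca-1neg libraries. Among tdT- cells, Ackr3 was higher by 2.48 ± 0.52 (0.0274) and Ccrl2, a chemerin-binding receptor, by 1.83 ± 0.42 (0.0296), and Ackr4, which takes up Ccl19, Ccl21 and Ccl25, was lower by a log2 fold change of -1.16 ± 0.20 (0.00874). Ackr1, of venous endothelium and red cells, was 197 and 221 CPM in Sca-1+ tdT- cells and at most 71.3 CPM in the other 9 libraries.

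Below the receptors, all 25 genes of a signalling list were tested. In the Sca-1+ fraction, 2 were higher and 3 lower in tdT+ than in tdT- libraries, beside 2.74% of all 20307 genes called. The regulator of G protein signalling Rgs2 was higher by 1.73 ± 0.31 on the log2 scale (adjusted p = 0.0134), while the receptor kinase Grk5 had a log2 fold change of -2.52 ± 0.26 (6.98e-04), beta-arrestin Arrb1 -1.45 ± 0.20 (0.00298) and Elmo1, which links receptors to Rac, -1.66 ± 0.32 (0.0219). None of the 25 passed between tdT+ and tdT- cells of the Sca-1neg fraction. Between Sca-1+ and Sca-1neg cells, 7 of the 25 were higher and 1 lower among tdT+ cells (12.7% of all genes called), led by Rgs2 (2.27 ± 0.27, 5.28e-04), the G protein subunit Gng2 (2.46 ± 0.33, 9.48e-04), Ptk2b (1.28 ± 0.22, 0.00363) and Grk5 (-1.11 ± 0.24, 0.0126). Among tdT- cells 8 of the 25 were higher (5.74% of all genes called), led by Arrb1 (2.14 ± 0.20, 0.00116), the phosphoinositide kinase subunit Pik3r5 (5.62 ± 0.91, 0.00859), Rgs1 (4.32 ± 0.74, 0.0157) and Grk5 (1.3 ± 0.26, 0.0169). The difference of the tdT effect passed for Arrb1 (-2.21 ± 0.26, 0.00559) and Grk5 (-2.41 ± 0.35, 0.0142), unlike that of any tested chemokine or receptor in edgeR's test. Both genes were highest in Sca-1+ tdT- cells, at means of 267 CPM for Arrb1 and 39.9 CPM for Grk5. In the same libraries the endothelial markers summed to 1616 and 1662 CPM, and the part of that cell type was not tested.

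Mice of 29 and 32 weeks were read apart for the 17 called values. All 17 had the same direction at 29 weeks, with 1 library per group and no test, and at 32 weeks. The same libraries gave the calls, so the shared direction is a description and no support for them. For Cxcr6 in the Sca-1+ fraction, the log2 ratio of tdT+ to tdT- was 2.5 at 29 weeks and 4.08 at 32 weeks, and for Cxcl14 -0.47 and -1.47. For Sca-1+ against Sca-1neg among tdT+ cells the log2 ratio of Cxcl14 was -1.90 at 29 weeks and -2.77 at 32 weeks. Fitted on the 32-week libraries alone, with 1 Sca-1+ tdT- library, 3 of the 17 passed: Cxcr6 between tdT+ and tdT- cells of the Sca-1+ fraction (adjusted p = 0.0369), and Cxcr6 and Cxcl14 between Sca-1+ and Sca-1neg tdT+ cells (0.00735 each).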

How the data were processed

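Per the labels' protocols, cells were freed with thermolysin, sorted by FACS and lysed in Trizol, and TruSeq RNA v2 libraries were prepared. The deposited values are raw read counts per Ensembl gene, 1 file per library. The submitters' processing notes name bcl2fastq 2.20.0.422, FastQC, STAR, featureCounts, DESeq2 1.18.1 and mm10; how strand and multiply mapped reads were handled is not given in the sources used here, which leaves overlapping genes and near-identical copies uncertain. The entry under a protein identifier, read as the tdT tracer, stayed out of the tests.

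Symbols came from GENCODE M21. Counts were fitted in R 4.3.3 with edgeR 4.0.16 (filterByExpr by group, TMM, robust glmQLFit, glmQLFTest) on all 11 libraries with 4 group means, leaving 7 residual degrees of freedom. P-values were adjusted by Benjamini-Hochberg over 20307 genes. They measure the spread between libraries, which may be partly technical. The SE is the absolute log2 fold change over the square root of F. CPM are TMM-scaled, except those of the tracer. The scripts were tested on simulated data.

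The members and lists were chosen with earlier results of these data known. The values of 1 member are not reported here; it stays in the counts, sums and medians over members. Named genes are all called members, the 10 with the highest CPM per kilobase, their partners, and up to 4 genes per pathway list and comparison. Genes outside that rule, such as Cxcr3, Ccl6, Ccl9, Ccr1 and Ccr2, were named after their values were seen. Alternatives were DESeq2 1.42.0, other scalings and filters, a replicate block, subsets of libraries and leaving out each library in turn.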

Additional observations from a re-analysis of the deposited data

How the results depend on the processing

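None of the 17 called values changed direction under any alternative run, although called values missed the threshold in 74 of the single-gene alternatives. The alternatives refit the libraries that gave the calls, so a kept direction is no independent support. Cxcr6 between tdT+ and tdT- cells of the Sca-1+ fraction, and Cxcr6 and Cxcl14 between Sca-1+ and Sca-1neg tdT+ cells, kept their calls in all 20 alternatives. Among uncalled values, Ccr8 between Sca-1+ and Sca-1neg tdT- cells turned to -0.29 in the 32-week libraries and ran from -0.27 (without Sca-1+ tdT- replicate 1) to 2.97 with 1 library left out, and the difference of the tdT effect of Xcl1 from -0.39 (without Sca-1neg tdT- replicate 3) to 1.16.

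The counts of called genes are given in the order tdT in Sca-1+, tdT in Sca-1neg, Sca-1 in tdT+, Sca-1 in tdT- and difference, and were 3, 1, 6, 7 and 0. DESeq2's Wald test, with 52 members in its fit in place of 43, gave 9, 7, 8, 15 and 3. Without a filter on low counts they were 3, 2, 8, 6 and 1, and in the 32-week libraries 1, 0, 2, 0 and 0. With only the compared groups in the fit, the first 4 were 5, 0, 7 and 13. Without the 3 libraries with liver transcripts they were 5, 1, 10, 16 and 0, and the gene called in Sca-1neg was then Cxcl1, lower in the 1 remaining tdT+ library. With the replicate block they were 3, 0, 5, 7 and 0, of which the first holds Ccl27a (adjusted p = 0.0346) in place of Cxcl14 (0.0686). Correlations of deviations were -0.42 to 0.59 over 15 same-numbered pairs, 7 of them over 0.1 (median 0.08), and 2 of 30 differently numbered pairs were over 0.1 (median -0.02). Replicate 1 is also the 29-week set. Not every same-numbered pair was over 0.1, and the numbers were not taken as pairs. Deviations sum to 0 within a group, so this check cannot decide whether same-numbered libraries share a source, which is unknown. Leaving out 1 library gave 1 to 4, 0 to 1, 5 to 6, 0 to 12 and 0 to 1. DESeq2 size factors, library size alone and a minimum of 10 CPM in 2 libraries left each count within 1.5 times. Calls over all genes moved too. In the same order they were 556, 13, 2572, 1166 and 98 in the main fit and 1501, 432, 4773, 2980 and 891 with DESeq2. They were 639, 81, 2156, 1089 and 234 without a filter and 502, 15, 2571, 1027 and 123 with the replicate block. With only the compared groups the first 4 were 957, 0, 1584 and 2003. Without the liver-positive libraries calls over all genes rose except for Sca-1 in tdT+, and in the 32-week libraries they fell. The causes of these shifts were not tested. Depth limits the low receptors: 3 counts, the limit that a count of 0 allows, are 0.0645 to 0.172 CPM per library.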

Other observations

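Cxcl11, known as a ligand of Cxcr3 in human, has a symbol of the chemokine pattern but is annotated as a polymorphic pseudogene in the mouse and was not counted as a member. It was 0 to 0.681 CPM in Sca-1+ tdT+, 0.127 and 0.377 CPM in Sca-1+ tdT-, 0.221 to 0.635 CPM in Sca-1neg tdT+ and 0 to 0.159 CPM in Sca-1neg tdT- libraries. Ccl20, the ligand of Ccr6, was 2.99 to 8.06 CPM in Sca-1+ tdT+, 2.66 and 2.18 CPM in Sca-1+ tdT-, 0.331 to 3.16 CPM in Sca-1neg tdT+ and 0.238 to 0.682 CPM in Sca-1neg tdT- libraries. Ccl25, a ligand of Ccr9 and Ackr4, was 1.02 to 4.58 CPM in Sca-1+ tdT+, 3.16 and 2.51 CPM in Sca-1+ tdT-, 2.30 to 5.02 CPM in Sca-1neg tdT+ and 3.49 to 9.38 CPM in Sca-1neg tdT- libraries, and overlaps Elavl1 on the other strand. Cxcl3 was 7.16 CPM in Sca-1neg tdT+ replicate 3, the library with the lowest Cxcl1, and 13.5 CPM in Sca-1+ tdT- replicate 2.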
